A study of Mus musculus with 6 samples.

Results

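The response of wild-type mouse macrophages to R848 was examined as the difference between a single array of cells treated with R848 for 2 h and a single array of untreated cells. A gene belonged to this comparison if its probe had a detection p-value under 0.01 on at least 1 of these arrays, which was the case for 6819 of the 16593 named genes on the array. The rule used the presence of signal and not its difference, so the size and direction of the differences were free to vary, except that a gene detected on only 1 of the arrays was likely to be brighter there. Of the 6819 genes, 6084 were detected on both arrays, 272 only after R848 and 463 only in untreated cells.

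The cells were bone marrow-derived macrophages from female mice of strain 129/BL6, grown for 5 days in L929 conditioned medium and collected as total RNA. The 2 groups compared were wild type, left untreated, and wild type, given R848 at 1 µg/ml for 2 h. The series also holds wild-type cells given CpG B at 1 µg/ml for 2 h, and untreated, R848 and CpG B groups of Irak2 knockout macrophages, each on 1 Illumina mouseRef-8 v2 array. The labels state neither the age of the mice nor how many animals stand behind an array.

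R848 (resiquimod) is an imidazoquinoline that in the mouse activates Toll-like receptor 7 (TLR7), an endosomal sensor of single-stranded RNA. TLR7 recruits the adaptor MyD88, which assembles IRAK kinases and the ubiquitin ligase TRAF6. From there the kinase TAK1 activates the IkappaB kinases, which release NF-kB, and the MAP kinases, which act on AP-1 factors and on mRNA stability. In macrophages this pathway is known for inducing inflammatory cytokines and chemokines within hours and, through secreted interferon, antiviral genes. CpG B oligonucleotides activate TLR9, which uses the same adaptor.

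On the untreated array 9294 of 25697 probes (36.2%) were detected, and on the R848 array 8968 (34.9%). The median scanner intensity was 23.9 and 20.6. All 8 macrophage markers with a named probe were detected on at least 1 of both arrays. No erythroid, endothelial or mast cell marker was detected. Of 9 neutrophil markers on the array 7 were detected, and none differed by 2-fold. Of 7 T cell markers only Cd28 was detected, and it fell (782 and 177, 4.41-fold lower), while Cd3d, Cd3e and Cd3g, which define T cells, were not detected. Of the markers of B cells 1 of 6 was detected, of natural killer cells 1 of 5, of dendritic cells 2 of 10, of fibroblasts 1 of 8 and of megakaryocytes 2 of 5. Among these 5 lists Ppbp alone was past 2-fold in the scanner values, and it was undetected in untreated cells. In the processed table, described below, the 2 detected dendritic cell markers were at least 2-fold higher as well. The part of other cells in the results was not tested. In bulk RNA, fewer cells of a type and less RNA per cell cannot be told apart.

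Values below are normalized intensities on a linear scale, called levels, given first for untreated and then for R848-treated cells. Differences are R848 minus untreated, in log2 units or as folds. They come from 1 array a side and therefore have no p-value. Where a probe was not detected on its dimmer array the fold is a lower limit, written "at least", taken against the lowest level of a detected probe there (99.7 untreated and 112 after R848) or against the probe's own signal if that was higher. Levels were not compared between probes.

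A difference of at least 2-fold was found for 1062 of the 6819 genes (15.6%), 525 of them higher after R848 (7.70%) and 537 lower (7.88%). With undetected arrays set to their limit, 472 and 410 remained past 2-fold. The median difference over all members was -0.10. By the differences as measured, with undetected arrays at their own signal, the increases were the larger ones. At least 4-fold higher were 240 genes and lower 93, and at least 16-fold 59 and 4. At 64-fold or more, 11 were higher and none lower. With undetected arrays at their limit, Edn1, Il6, Mmp14 and Il4i1 of these 11 were at least 58.5-fold, 28.3-fold, 25.5-fold and 23.4-fold higher. Gpr183 and Tmem86a, of the 4 lower by at least 16-fold, were then at least 10.7-fold and 10.2-fold lower. Falls of 16-fold could have been measured in the 1703 members with an untreated level at least 16 times the lowest level detected after R848, and falls of 64-fold in 379.

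**Figure D1:**
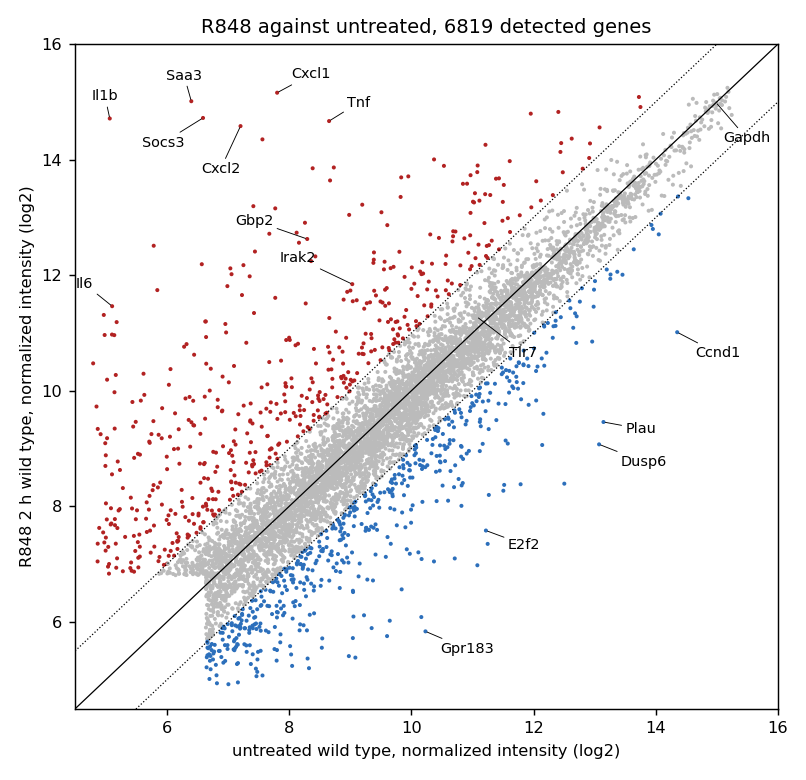
Normalized intensity (log2) of the 6819 detected genes in untreated (x axis) and R848-treated (y axis) wild-type macrophages, 1 array each. Points at least 2-fold higher are red (525 genes), at least 2-fold lower blue (537), and dotted lines mark 2-fold.

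The spread between untreated arrays gave a scale for these differences. In the processed table the stimulated columns equal the single arrays, with 99.4% of the R848 column's values within 0.5 units of the quantile-normalized array, whereas the untreated column does so for 5.58% of its values and was taken as the mean of the deposited array and another one. That other array, recovered by subtraction, differed from the deposited untreated array by 2-fold or more for 33 of the 6819 genes (0.484%), with an SD over genes of 0.255 on the log2 scale. The labels do not say whether it came from a separate culture, and this spread may be technical. Of the 1062 genes past 2-fold, 882 were also past 2-fold in the same direction against the recovered array. Among the genes named below, those of the 1062 that were not are Arg1, Ccl6, Ccnf, Clec10a, Cnpy3, Cx3cr1, Cyp51, Dok2, Egr1, Fos, Gadd45g, H2ac15, Ifngr2, Itga5, Itgb5, Mitf, Rc3h1, Rrm2, Stat4 and Zfp36l1, and, in the closing observations, Id1 and Id3.

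**Figure D2:**
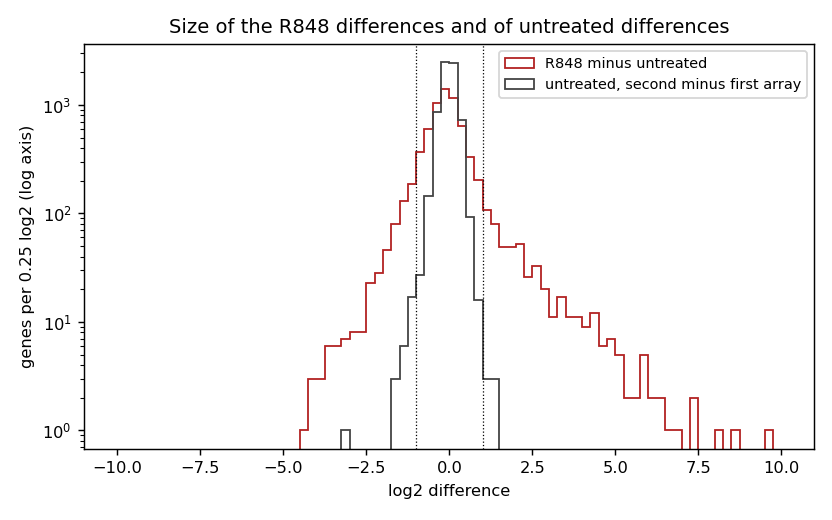
Number of genes (log axis) per 0.25 log2 of difference, for R848 minus untreated (red) and for the recovered minus the deposited untreated wild-type array (grey). The grey distribution holds 33 genes past 2-fold (dotted lines) and the red one 1062.

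In the processed table as deposited, which averages the untreated arrays, 517 genes were at least 2-fold higher after R848 and 519 lower. Of these, 484 and 469 were the same genes as above, and no gene past 2-fold in the scanner values had the opposite sign in the processed values. The R848 array is common to these views, so they differ only in the untreated side. Among the 222 genes past 2-fold that had another detected probe, the other probes had the same sign in 221, the exception being Ahnak, and were also past 2-fold in 182. Genes named below whose other probe stayed within 2-fold are Chek2, Stat4, Tgfbr2, Tsc22d3 and Zfp36l1. The ranks and folds below are those of the probe used, and sizes differed between probes in either direction. The other probes gave smaller differences for, among others, Mmp13 (3.88 in place of 5.46), Fas (3.19 in place of 4.62) and Il1rn (3.65 in place of 4.97). They gave larger ones for, among others, Csf3r (3.37 in place of 2.12) and Clec4e (4.39 in place of 3.63).

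**Figure D3:**
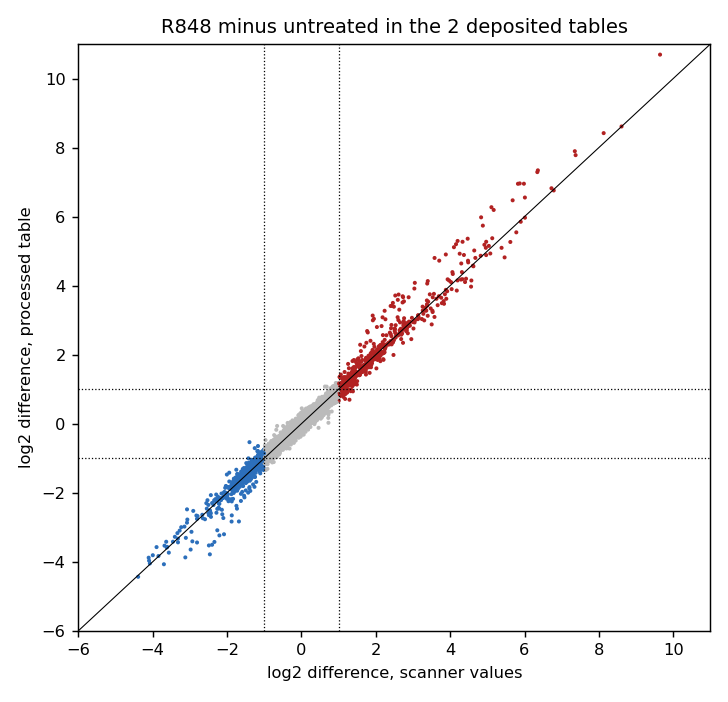
Log2 difference, R848 minus untreated, in the scanner values (x axis) and in the processed table (y axis) for the 6819 genes. Points are coloured by the scanner values at 2-fold (dotted lines), and no red or blue point has the opposite sign on the y axis.

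A test with samples of R848 on more than 1 array was possible only over both genotypes, by a limma fit of agent and genotype to the 6 arrays (2 residual degrees of freedom, Benjamini-Hochberg adjustment over the 7149 genes detected on any array). In it 866 genes (12.1%) rose with R848 and 1237 (17.3%) fell. It called 471 of the 525 genes that were 2-fold higher in wild type and 491 of the 537 that were lower. The wild-type arrays that picked these genes are also in the fit, so this overlap is partly built in and is not separate support. Below, "rose" and "fell" are used only for genes called by this fit, and its effect is given with its standard error. The calls rest on the untreated arrays: without the wild-type untreated array 2 genes rose and 0 fell by limma (1 residual degree of freedom), without the knockout untreated array 25 and 2, and without the wild-type R848 array 567 and 615. Dropping the knockout R848 array gave 938 and 1295, and dropping either CpG B array 785 and 1075.

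The edges of both thresholds show what they separate. The 50 genes just inside the detection limit, at a value of 0.00877 for detection, had differences from -1.43 to 1.78, and the 26 just outside it, at 0.01003, from -0.73 to 1.79, Csf2, a myeloid growth factor, among the latter. Itga5 (1.002) was the last gene counted as higher and Rab10 (0.998) the first not counted. H2ac15 (-1.001) and Dusp22 (-0.99998) stood on either side of the lower limit.

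The genes with the largest increases included those of cytokines, chemokines and a regulator of cytokine signalling. Il1b, the precursor of the fever-inducing cytokine IL-1 beta, was undetected in untreated cells and had a level of 26822 after R848, at least 269-fold higher (limma effect 8.62 ± 0.54, adjusted p = 0.00172). Saa3, an acute phase apolipoprotein made by macrophages, was undetected untreated and 32993 after R848, at least 331-fold higher. Socs3, which blocks signalling by IL-6-type receptors, was undetected untreated and 26996 after R848, at least 271-fold higher. None of these was above the detection limit in untreated cells.

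The chemokines Cxcl2, Cxcl1 and Ccl5 followed. Cxcl2 and Cxcl1 attract neutrophils through CXCR2. Cxcl2 was 148 untreated and 24483 after R848, 166-fold higher, and Cxcl1 was 224 untreated and 36538 after R848, 163-fold higher. Both were lower on the recovered untreated array than on the deposited one, by -1.12 and -1.57 in log2 units, and their differences against the mean of both arrays were 7.78 and 7.89 in place of 7.37 and 7.35. Ccl5, which attracts T cells and monocytes, was 189 untreated and 20881 after R848, 110.3-fold higher.

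The rest of the 15 highest genes were less bright or had a detected untreated signal. Tnf, the cytokine that drives much of early inflammation, was 403 untreated and 26005 after R848, 64.5-fold higher (limma effect 5.33 ± 0.31, adjusted p = 0.00164). Edn1, the vasoconstrictor endothelin-1, was undetected untreated and 5833 after R848, at least 58.5-fold higher. Il6, which induces the acute phase response, was undetected untreated and 2825 after R848, at least 28.3-fold higher. Mmp14, a membrane-bound matrix metalloproteinase, was undetected untreated and 2544 after R848, at least 25.5-fold higher. Neither Il6 nor Mmp14 was detected on the untreated array, so their folds are limits set by the floor of the array.

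Il4i1, a secreted amino acid oxidase, was undetected untreated and 2335 after R848, at least 23.4-fold higher. Slc7a11, the cystine transporter subunit of system xc-, was undetected untreated and 2000.1 after R848, at least 20.1-fold higher. Flrt3, a leucine-rich repeat transmembrane protein, was undetected untreated and 3427 after R848, at least 34.4-fold higher. Its difference was 5.90, and the mean of its 2 other detected probes was 4.03. Ptgs2, cyclooxygenase-2, makes prostaglandin precursors and was undetected untreated and 2011 after R848, at least 20.2-fold higher, and Il1a, the other IL-1 agonist, was undetected untreated and 1997 after R848, at least 20.02-fold higher. All 15 of these genes rose in the fit over both genotypes, which includes the arrays that ranked them.

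The 15 lowest genes included surface receptors, signalling regulators and cell cycle genes. Gpr183, the oxysterol receptor that guides immune cell migration, was 1202 untreated and undetected after R848, at least 10.7-fold lower (limma effect -3.63 ± 0.51, adjusted p = 0.00731). Gcnt1, a glycosyltransferase that branches O-glycans, was 5806 untreated and 336 after R848, 17.3-fold lower. Lbh, a transcriptional cofactor, was 2166 untreated and 126 after R848, 17.1-fold lower (-4.10, and -2.61 by its other probe). Dusp6, the phosphatase that inactivates ERK, was 8612 untreated and 539 after R848, 15.98-fold lower. These 4 and the following genes were all detected in untreated cells.

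Plau, urokinase plasminogen activator, was 9052 untreated and 705 after R848, 12.8-fold lower. Lpar6, a receptor for lysophosphatidic acid, was 2435 untreated and 163 after R848, 14.9-fold lower, and Cnr2, the cannabinoid receptor of immune cells, was 543 untreated and undetected after R848, at least 4.84-fold lower. Slco2b1, an organic anion transporter, was 778 untreated and undetected after R848, at least 6.93-fold lower, and Angpt2, a ligand of the TIE2 receptor, was 802 untreated and undetected after R848, at least 7.15-fold lower. Rasgrp3, an activator of Ras and Rap, was 1676 untreated and 137 after R848, 12.2-fold lower, and Snx24, a sorting nexin, was 3537 untreated and 334 after R848, 10.6-fold lower. Tmem86a, Dennd2c and Tmem154 were lower by at least 10.2-fold, at least 4.495-fold and at least 5.82-fold. E2f2 is described with the cell cycle genes below. All 15 fell in the limma fit over both genotypes, which includes the arrays that ranked them, Cnr2 with the weakest call (adjusted p = 0.0468).

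The rest of the response is given by 42 lists of genes with a shared role, which hold 1003 of the 6819 members, while 704 of the 1062 genes past 2-fold are in none of them. Counts of list members past 2-fold are to be read against 7.70% higher and 7.88% lower over all members, and list medians against -0.10. Limma counts of list members are to be read against 12.5% risen and 17.8% fallen over all members. In the leave-one-out fits without the wild-type untreated array, limma called no member of any list except 2 chemokines, and without the knockout untreated array it called at most 4 risen members and 1 fallen member of a list.

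**Figure D4:**
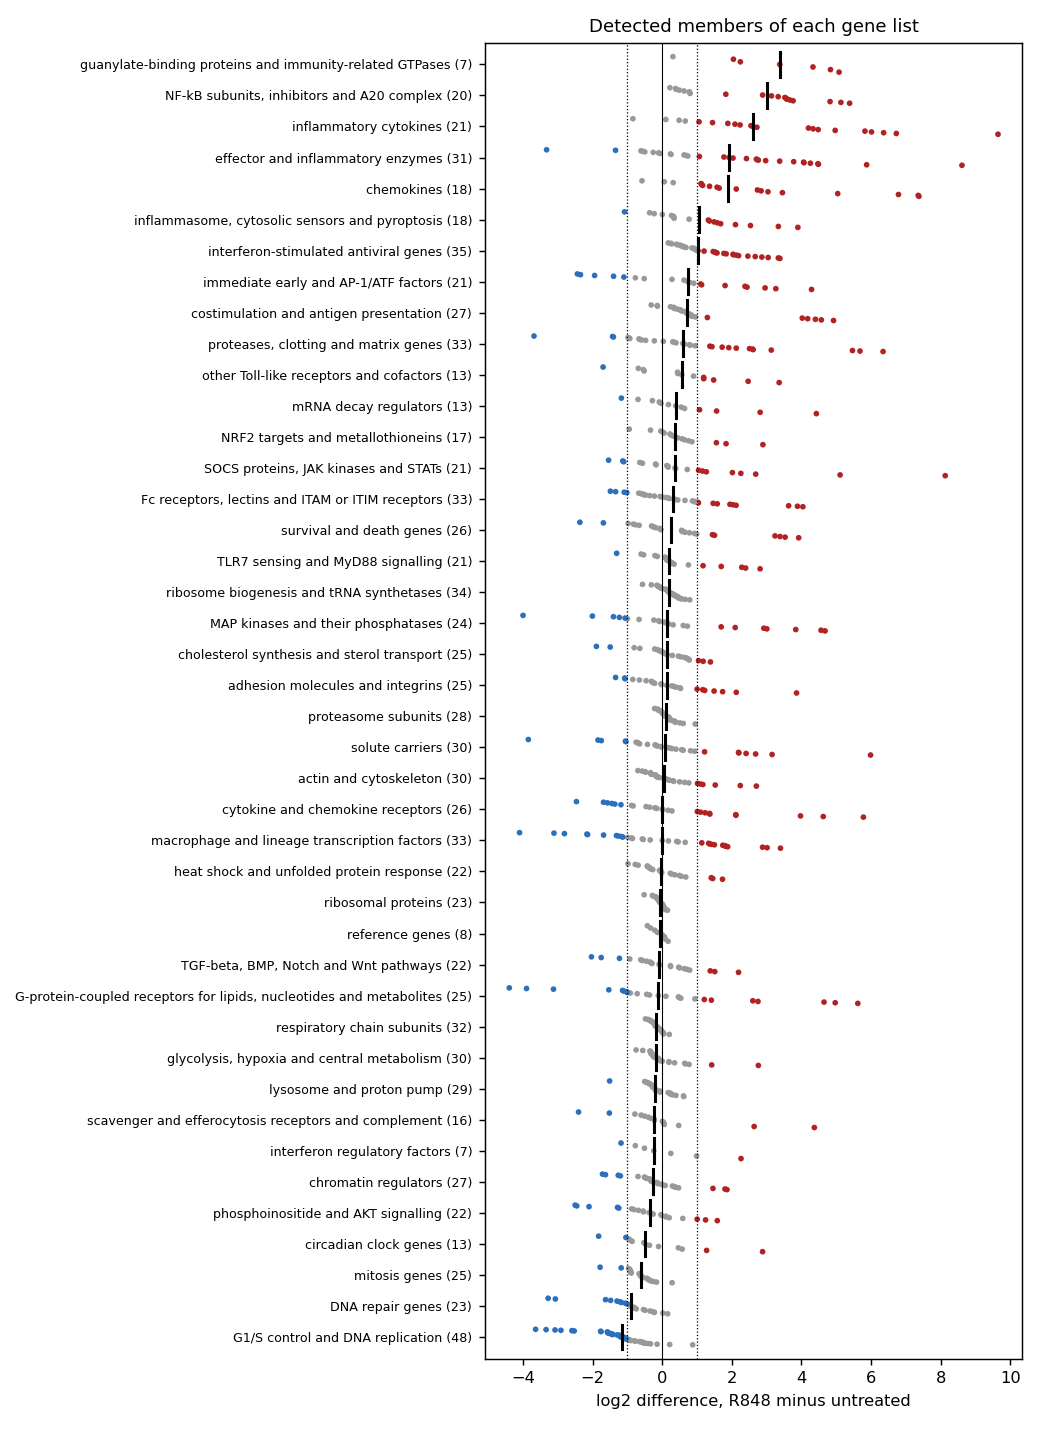
Log2 difference, R848 minus untreated, of each detected member of the 42 gene lists, with the number of members in brackets, sorted by the list's median (black bar). Guanylate-binding proteins (median 3.37) and NF-kB genes (3.01) lie at the top, and G1/S genes (-1.15) at the bottom, while ribosomal proteins and reference genes lie close to 0.

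Among 21 genes of TLR7 sensing and MyD88 signalling, 5 were at least 2-fold higher and 1 lower, with a median of 0.20. Tlr7 itself had levels of 2157 untreated and 2486 after R848, a difference of 0.20 that was -0.03 in the processed values. Irak2, the kinase whose gene is deleted in the other genotype of the series, was 524 untreated and 3680.4 after R848, 7.02-fold higher. Both of its probes were also detected on all 3 knockout arrays. The probe given here had levels of 352 untreated, 941 with R848 and 748 with CpG B there, against 2182 with CpG B in wild type. Its limma effect over both genotypes was 2.11 ± 0.32, adjusted p = 0.00893 and includes these knockout arrays, where the difference was 1.42. The labels do not say whether the probes lie in the deleted part, so this signal does not check the genotype. Irak3, the inhibitory member of the family known as IRAK-M, was 1269.6 untreated and 6678 after R848, 5.26-fold higher. Thus 2 IRAK genes with opposite known roles were higher together, while Irak1, a further kinase of the family, differed by 0.09.

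Myd88, the adaptor, was 4449 untreated and 10029 after R848, 2.25-fold higher, and Slc15a3, an endolysosomal transporter of bacterial peptides, was 2676 untreated and 13031 after R848, 4.87-fold higher. Tifa, a TRAF-interacting adaptor, was 245 untreated and 793 after R848, 3.24-fold higher and was not called by limma. Traf6, Map3k7 (TAK1), Ikbkb and Unc93b1, the chaperone that brings TLR7 to endosomes, differed by between 0.12 and 0.27. Cnpy3, a chaperone needed for folding of several TLRs, was 264 untreated and undetected after R848, at least 2.35-fold lower, and Btk, a tyrosine kinase of the pathway, fell without reaching 2-fold (-0.61).

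Other Toll-like receptors moved apart. Of 13 genes 5 were at least 2-fold higher and 1 lower. Tlr2, the receptor for bacterial lipopeptides, was 1483 untreated and 15200.4 after R848, 10.3-fold higher. Its partners Tlr1 (200.2 and 1107, 5.53-fold higher) and Tlr6 (554 and 1267, 2.29-fold higher) rose as well, and so did Cd14, the co-receptor that passes ligands to TLR2 and TLR4 (8659 and 24099, 2.78-fold higher). Tlr4, the receptor for lipopolysaccharide, differed by -0.52 and was not called, and Tlr13, the mouse sensor of bacterial ribosomal RNA, was 4215 untreated and 1299 after R848, 3.25-fold lower.

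Of 20 genes of the NF-kB system 12 were at least 2-fold higher and none lower, with a median of 3.01 (2.87 with undetected arrays at their limit). By limma 15 rose and none fell, a count that was 0 without the wild-type untreated array and 4 without the knockout one. The largest values were those of Tnfaip3 and Nfkbiz. Tnfaip3, the ubiquitin-editing enzyme A20 that shuts off NF-kB, was 219 untreated and 9129 after R848, 41.7-fold higher. Nfkbiz, a nuclear IkappaB that promotes secondary genes such as Il6, was 425 untreated and 14907 after R848, 35.1-fold higher. Nfkbia, IkappaB alpha, which returns NF-kB to the cytoplasm, was 989.8 untreated and 13396 after R848, 13.5-fold higher.

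Subunits differed from each other. Nfkb2 was 137 untreated and 1379.9 after R848, 10.1-fold higher, Relb undetected untreated and 952 after R848, at least 9.54-fold higher and Rel undetected untreated and 722 after R848, at least 7.24-fold higher, whereas Rela, the constitutive p65 subunit, rose without reaching 2-fold (0.63). Traf1, Bcl3 and Tnip1, the partner of A20, were higher by 28.2-fold, 12.7-fold and 11.9-fold. Birc3, a ubiquitin ligase of TNF signalling, was undetected untreated and at least 9.37-fold higher, while its relative Birc2 differed by 0.78. The deubiquitinases Cyld and Otulin differed by 0.22 and 0.41.

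Promoters were taken from RefSeq (assembly GRCm38.p6), from 250 bases before to 50 after the first listed start of each gene. Some genes have more than 1 listed start, such as Tnfaip3, Gbp3 and E2f2 with 2 each, and their other starts were not searched. NF-kB binds decamers of the kappaB type, and a plain form of them, GGGNNNTTCC, was looked for on both strands of these promoters. It was present in 5.52% of 27025 promoters, in 6.19% of the 5658 members with a promoter, in 9.66% of the 414 genes at least 2-fold higher, in 21.3% of the 89 at least 8-fold higher and in 4.23% of the 426 at least 2-fold lower. In the NF-kB list 8 of 18 promoters held it, and in the chemokine list 4 of 13. The promoters of the genes with the largest differences among those with the motif in these lists are printed 5' to 3' on the gene's strand, to show the number and spacing of the matches, which are in capitals. Those of Cxcl2 (chr5:90903649-90903948, plus strand) and Cxcl1 (chr5:90890995-90891294, plus strand), which lie near each other on chromosome 5, each hold a match that reads on both strands and overlaps itself, and a further one. That of Tnfaip3 (chr10:19015361-19015660, minus strand) holds 2 on the opposite strand, 1 before and 1 after the start.
Cxcl2: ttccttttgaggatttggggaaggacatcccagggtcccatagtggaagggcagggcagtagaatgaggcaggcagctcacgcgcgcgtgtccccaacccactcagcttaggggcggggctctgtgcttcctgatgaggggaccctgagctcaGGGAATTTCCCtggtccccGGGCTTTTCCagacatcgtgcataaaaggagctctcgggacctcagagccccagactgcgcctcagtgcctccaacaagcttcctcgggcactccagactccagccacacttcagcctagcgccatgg
Cxcl1: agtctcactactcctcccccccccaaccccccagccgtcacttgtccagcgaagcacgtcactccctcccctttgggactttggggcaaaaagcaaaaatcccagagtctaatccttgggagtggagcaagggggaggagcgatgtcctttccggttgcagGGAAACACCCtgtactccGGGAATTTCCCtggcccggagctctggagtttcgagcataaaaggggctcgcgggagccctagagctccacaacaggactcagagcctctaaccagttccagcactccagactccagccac
Tnfaip3: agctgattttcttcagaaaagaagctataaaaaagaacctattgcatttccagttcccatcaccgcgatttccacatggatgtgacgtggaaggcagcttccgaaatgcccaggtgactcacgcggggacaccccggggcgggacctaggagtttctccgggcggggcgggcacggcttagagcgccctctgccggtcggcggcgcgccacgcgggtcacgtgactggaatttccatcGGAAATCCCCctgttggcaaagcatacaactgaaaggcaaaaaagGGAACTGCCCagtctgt
A match of these letters is a description of the sequence and not evidence of binding.

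Among MAP kinase genes and their phosphatases, the phosphatases and GADD45 genes differed in either direction. Of 24 members 7 were at least 2-fold higher and 5 lower. Dusp2, a nuclear phosphatase of ERK and p38, was undetected untreated and 1257 after R848, at least 12.6-fold higher, and Dusp16, which acts on JNK, was 670.5 untreated and 5383 after R848, 8.03-fold higher. Dusp1, which acts on p38 and JNK, was 5555 untreated and 17961 after R848, 3.23-fold higher but was not called by limma, its knockout difference being -0.06. Dusp6 and Dusp7, both cytoplasmic ERK phosphatases, fell, Dusp7 being 2.64-fold lower. Gadd45b and Gadd45a were at least 23.6-fold and 7.56-fold higher, and their relative Gadd45g was 4.02-fold lower, a difference of -2.01 that was -0.69 against the recovered untreated array.

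Of the kinases, Map3k8 (TPL2), which links IkappaB kinase to ERK, was 219 untreated and 3123 after R848, 14.3-fold higher, and Mapkapk2, the p38 target that stabilizes Tnf mRNA, was 2507 untreated and 10715 after R848, 4.27-fold higher. Mapk14 (p38 alpha) was 2232 untreated and 1066 after R848, 2.09-fold lower and was not called. The upstream kinases Map2k1, Map2k2 and Map2k4 differed by 0.10 to 0.17.

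Most of the inflammatory cytokines were past 2-fold. Of 21 members 17 were at least 2-fold higher and none lower, 15 with undetected arrays at their limit, and the median was 2.61 (2.09 at the limits). By limma 14 rose and 1 fell, 0 and 0 without the wild-type untreated array and 1 and 0 without the knockout one. Beside the members given above, Il1rn, the IL-1 receptor antagonist, was 174 untreated and 5441 after R848, 31.3-fold higher. Il10, the main anti-inflammatory cytokine of macrophages, was undetected untreated and 1738 after R848, at least 17.4-fold higher. Agonists and an antagonist of IL-1 were therefore higher on the same array, and bulk RNA does not show whether in the same cells.

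Il27, the p28 subunit of IL-27, was undetected untreated and 651 after R848, at least 6.53-fold higher and Il19, of the IL-10 family, undetected untreated and 609 after R848, at least 6.11-fold higher, neither called by limma, whereas Ebi3, the partner chain of p28, rose (751 and 4393, 5.85-fold higher). Growth factors were included: Csf1, M-CSF, was undetected untreated and 244 after R848, at least 2.45-fold higher and Csf3, G-CSF, undetected untreated and 206 after R848, at least 2.07-fold higher. Osm rose (356 and 969, 2.72-fold higher), as did Lta, lymphotoxin alpha (undetected and 188, at least 1.89-fold higher), and Inhba, an activin subunit (undetected and 151, at least 1.51-fold higher). Il18 and Vegfa differed by 0.66 and 0.10, and Tnfsf13b, the B cell factor BAFF, fell (at least 1.37-fold).

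Chemokines differed in size by family member. Of 18 members 15 were at least 2-fold higher and none lower, 13 at the limits, with a median of 1.88 (1.497 at the limits), and by limma 13 rose and 1 fell (2 and 0 without the wild-type untreated array, 3 and 0 without the knockout one). Cxcl10, an attractant of activated T cells that interferon also induces, was 205 untreated and 6734 after R848, 32.9-fold higher. Cx3cl1, the membrane-bound fractalkine, was undetected untreated and 376 after R848, at least 3.77-fold higher, and Cxcl9 was undetected untreated and 319 after R848, at least 3.1999-fold higher. Of the CC chemokines, Ccl3 was 3968 untreated and 28424 after R848, 7.16-fold higher, and Ccl2 was 7697 untreated and 16702 after R848, 2.17-fold higher. For Ccl4 the probes disagreed in size: the brighter was 13529.9 untreated and 34708 after R848, 2.57-fold higher, a difference of 1.36, and the other had a difference of 3.82.

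Ccl17, a ligand of CCR4, was undetected untreated and 198 after R848, at least 1.98-fold higher, and Cxcl16, a scavenger receptor as well as a chemokine, was 1029.8 untreated and 4498 after R848, 4.37-fold higher. Ccl7 and Ccl6 were 2.24-fold and 2.19-fold higher. Ccl12 (3.11-fold higher) and Ppbp (at least 1.41-fold higher) were not called. Ccl9 and Pf4 differed by 0.31 and 0.06, and Cxcl14 fell (-0.58, and -1.50 by its other probe).

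Receptors for cytokines and chemokines went both ways, 10 of 26 being at least 2-fold higher and 6 lower (3 at the limits). Ccrl2, an atypical receptor that binds chemerin, was 171 untreated and 9374 after R848, 54.9-fold higher. Fas, the death receptor, was 164 untreated and 4042 after R848, 24.7-fold higher, and Tnfrsf1b, the inducible TNF receptor 2, was undetected untreated and 706 after R848, at least 7.08-fold higher, against a difference of 0.28 for Tnfrsf1a, the constitutive one. Csf3r was 248 untreated and 1077 after R848, 4.34-fold higher and Csf2rb, the shared beta chain for GM-CSF, IL-3 and IL-5, was undetected untreated and 262 after R848, at least 2.62-fold higher. Its near copy Csf2rb2 was 2.56-fold higher, and the table does not say how far the probes tell them apart.

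The interferon receptor chains Ifnar2 and Ifngr2 were 2.58-fold and 2.14-fold higher, and Ifngr1 differed by 0.17. On the other side stood Cxcr4, the receptor for CXCL12 (222 and undetected, at least 1.98-fold lower), Il6ra (186 and undetected, at least 1.66-fold lower) and both TGF-beta receptors, Tgfbr1 (3386 and 1138, 2.98-fold lower) and Tgfbr2 (11229 and 4121, 2.73-fold lower). Cx3cr1, the receptor of fractalkine, was 1307 untreated and 575 after R848, 2.27-fold lower, a difference of -1.19 that was -0.31 against the recovered untreated array. Fractalkine, given above, differed in the other direction.

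Of 21 SOCS, JAK and STAT genes 8 were at least 2-fold higher and 3 lower. Cish, a feedback inhibitor of STAT5, was undetected untreated and 1239 after R848, at least 12.4-fold higher. Socs1, the inhibitor of interferon signalling, was undetected untreated and 158 after R848, at least 1.58-fold higher and was not called, while Jak2 (475 and 3057, 6.43-fold higher) and Stat2 (242 and 980.5, 4.04-fold higher) rose. The other SOCS genes on the array stayed within 2-fold: Socs6 fell (-0.57), and Socs4 and Socs5 differed by 0.38 and -0.64. Pias3, an inhibitor of STAT3, was 415 untreated and 143 after R848, 2.91-fold lower, and Stat4 was 317 untreated and 144 after R848, 2.19-fold lower.

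Of 13 regulators of mRNA decay 4 were at least 2-fold higher and 1 lower (3 and 0 in the processed values). Zc3h12a, the endonuclease regnase-1 that cleaves Il6 mRNA, was 150.1 untreated and 3229 after R848, 21.5-fold higher. Zfp36, tristetraprolin, which destabilizes Tnf mRNA, was 2173 untreated and 15262 after R848, 7.02-fold higher. Rc3h1, roquin-1, was 2.101-fold higher and Zfp36l1, a paralog of Zfp36, was 2.25-fold lower, a difference of -1.17 that was -0.30 against the recovered untreated array.

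Cytosolic sensors and pyroptosis genes had a median of 1.05, with 9 of 18 at least 2-fold higher and 1 lower. Casp4 (caspase-11), the sensor of intracellular lipopolysaccharide, was 345 untreated and 5134 after R848, 14.9-fold higher. Nlrp3, the sensor of the inflammasome that matures IL-1 beta, was undetected untreated and 249.9 after R848, at least 2.51-fold higher. Nod2 and Nod1, receptors for peptidoglycan fragments, were at least 4.78-fold and 4.297-fold higher. Casp1 rose without reaching 2-fold (0.77), Pycard, the adaptor ASC, fell (-0.36), and Gsdmd, the pore-forming gasdermin D, differed by 0.34.

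The RNA sensors Ddx58 (RIG-I) and Ifih1 (MDA5) were 414 untreated and 1325 after R848, 3.2005-fold higher and 132 untreated and 396 after R848, 3.0001-fold higher. Their adaptor Mavs was 452 untreated and 213 after R848, 2.12-fold lower. Cgas and Aim2, sensors of DNA, differed by 0.33 and 0.00.

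Interferon-stimulated antiviral genes were higher as a group, with differences smaller than those of the cytokines. Of 35 members 18 were at least 2-fold higher (17 at the limits) and none lower, with a median of 1.03 (0.99 at the limits), and by limma 22 rose and none fell, 0 without either untreated array. Mx1 and Mx2, GTPases that block viruses, were undetected untreated and 549 after R848, at least 5.504-fold higher and 120.5 untreated and 1215 after R848, 10.1-fold higher. Rsad2, viperin, was 2375 untreated and 19566 after R848, 8.24-fold higher. Isg15, a ubiquitin-like modifier, was 756 untreated and 4815 after R848, 6.37-fold higher, and Usp18, which removes it, was 2366 untreated and 10825 after R848, 4.58-fold higher. With the probes used, the members with the smallest differences were Ifitm3 (0.17), Oas1g (0.25) and Pml (0.27). The 2 other detected probes of Oas1g had a mean difference of 0.93.

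Guanylate-binding proteins and immunity-related GTPases, which attack vacuoles that hold pathogens, had a median of 3.37, above that of the NF-kB list, but of 2.24 with undetected arrays at their limits, below the 2.87 of that list. Of 7 members 6 were at least 2-fold higher and none lower, and the same number rose by limma (0 without either untreated array). Gbp3 was 132 untreated and 4447 after R848, 33.8-fold higher. Gbp5, which also promotes inflammasome assembly, was undetected untreated and 1007 after R848, at least 10.1-fold higher, and Gbp2 was 315 untreated and 6323 after R848, 20.1-fold higher. Gbp7, Igtp and Irgm2 were higher by at least 4.596-fold, 4.74-fold and 4.13-fold, and Irgm1 differed by 0.31 with the probe used, at levels of 13738 and 16993. The 2 other detected probes of Irgm1 had a mean difference of 1.72, and with the mean of all detected probes 7 of 7 members were at least 2-fold higher. With that choice the list median was 2.70, below the 2.80 of the NF-kB list.

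The element bound by interferon-activated factors, searched as GAAANNGAAA on both strands, was present in 3.49% of all promoters and in 3.31% of those of the members. Of the genes at least 2-fold higher 10.1% held it, of those at least 8-fold higher 15.7%, and of those at least 2-fold lower 1.64%. All 7 promoters of the guanylate-binding protein list and 13 of 29 of the antiviral list held it. The promoter of Gbp3, the member with the largest difference (chr3:142559794-142560093, plus strand, GRCm38.p6 from RefSeq), holds 2 overlapping matches on the opposite strand, shown in capitals, which start 45 and 39 bases before the gene's start.
Gbp3: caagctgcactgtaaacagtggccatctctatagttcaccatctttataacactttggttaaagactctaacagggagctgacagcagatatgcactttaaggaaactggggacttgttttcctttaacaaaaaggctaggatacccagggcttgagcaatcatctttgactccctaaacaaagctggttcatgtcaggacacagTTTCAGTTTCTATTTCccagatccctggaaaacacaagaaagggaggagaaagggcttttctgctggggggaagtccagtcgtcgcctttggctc
Other motifs were searched in the same promoters. AP-1 motifs (TGANTCA) were in 7.93% of all, 5.05% of the members' and 9.9% of those of genes at least 2-fold higher. Of the genes at least 8-fold higher 16.9% held them, and of those at least 2-fold lower 5.4%. For CRE motifs (TGACGTCA) the shares in the same order were 1.88%, 3.46%, 3.14%, 0% and 2.58%.

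Of 7 interferon regulatory factors 1 was at least 2-fold higher and 1 lower. Irf1, an early target of NF-kB, was 2061 untreated and 9889.8 after R848, 4.799-fold higher. Irf5, the factor that acts with MyD88, was 2897 untreated and 1276 after R848, 2.27-fold lower, and Irf8, which sets myeloid identity, fell (-0.77). Irf7, needed for interferon alpha, lay just under 2-fold (0.99) and was not called.

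Immediate early and AP-1 factors, many of which are known to peak within the first hour after a stimulus, were split at 2 h. Of 21 members 8 were at least 2-fold higher and 5 lower (3 against the recovered untreated array). Batf was 99.9 untreated and 1952 after R848, 19.5-fold higher, Batf2 undetected untreated and 579.9 after R848, at least 5.81-fold higher and Junb 837 untreated and 4529 after R848, 5.41-fold higher. Egr2 was undetected untreated and 676 after R848, at least 6.78-fold higher. Fos was 3557 untreated and 926 after R848, 3.84-fold lower, Klf2 1835 untreated and 339 after R848, 5.41-fold lower and Klf4 563 untreated and undetected after R848, at least 5.02-fold lower.

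The untreated arrays differed in some of these genes. Egr1 was 802 untreated and 304 after R848, 2.64-fold lower, but its level was lower on the recovered untreated array by -3.20 in log2 units, and against that array alone the difference was 1.81, the opposite direction. For Fos the recovered array was lower by -1.20, and the difference against it was -0.70. The direction for Egr1 therefore depends on the untreated array used.

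Transcription factors of the macrophage and related lineages were divided almost evenly, 12 of 33 at least 2-fold higher and 10 lower. Tfec, a macrophage-restricted factor of the MITF family, was undetected untreated and 909 after R848, at least 9.11-fold higher, and Mitf itself was 2.198-fold higher. Nfil3 was 669 untreated and 4935 after R848, 7.37-fold higher, Pou2f2 114 untreated and 920.0 after R848, 8.07-fold higher, and Cebpb, which cooperates with NF-kB at cytokine genes, was 6314 untreated and 21072 after R848, 3.34-fold higher. Spi1 (PU.1), the factor that defines macrophages, was 596 untreated and 1590.3 after R848, 2.67-fold higher. The genes that fell included Lyl1 (599 and undetected, at least 5.34-fold lower), Hhex (1808 and 258, 7.01-fold lower), Mef2c (2226 and 497, 4.48-fold lower) and Etv5 (570.4 and 129, 4.42-fold lower), and Nfatc1, the osteoclast factor, was 807 untreated and 251 after R848, 3.21-fold lower.

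Of 27 chromatin regulators 3 were at least 2-fold higher (11.1%) and 4 lower (14.8%). Kdm6b, the H3K27 demethylase known to be induced by NF-kB, was undetected untreated and 340.4 after R848, at least 3.41-fold higher, while Ezh2, the methyltransferase of the same residue, was 1465 untreated and 610.4 after R848, 2.3997-fold lower. Dnmt1, the maintenance DNA methyltransferase, was 3103 untreated and 1002 after R848, 3.096-fold lower, and Hdac5 was 1426 untreated and 434 after R848, 3.28-fold lower.

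G-protein-coupled receptors for small ligands were among the largest differences in either direction, 7 of 25 being at least 2-fold higher and 8 lower (5 against the recovered untreated array). Hcar2, the niacin and hydroxybutyrate receptor, was undetected untreated and 4674 after R848, at least 46.9-fold higher. Fpr2, a formyl peptide receptor, was 408 untreated and 12759.7 after R848, 31.3-fold higher, and Gpr84, for medium-chain fatty acids, was 307 untreated and 7684 after R848, 25.1-fold higher. Some receptors for nucleotides fell: P2ry1 was 321 untreated and undetected after R848, at least 2.86-fold lower and P2ry12 142 untreated and undetected after R848, at least 1.27-fold lower. The lysophosphatidic acid receptors differed in opposite directions, Lpar1 being 6.73-fold higher and Lpar6, given above, 14.9-fold lower.

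Pattern-recognition lectins and Fc receptors were more often higher than lower, 10 of 33 being at least 2-fold higher and 4 lower (2 against the recovered untreated array). Clec4e (Mincle), which binds mycobacterial glycolipids, was 1325 untreated and 16418 after R848, 12.4-fold higher, and the lectins Clec4n (Dectin-2) and Clec4a1 were 2.99-fold and 16.4-fold higher. Fcgr2b, the inhibitory IgG receptor, was 329 untreated and 4852 after R848, 14.8-fold higher, and Syk, the kinase below activating receptors, was 121 untreated and 527 after R848, 4.35-fold higher. Trem2, Clec10a and Dok2 were 2.02-fold, 2.13-fold and 2.53-fold lower.

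Of 16 genes for the uptake of debris and for complement, 2 were at least 2-fold higher and 2 lower. Cfb, complement factor B, was undetected untreated and 896 after R848, at least 8.98-fold higher, and Marco, a scavenger receptor for bacteria, was undetected untreated and 400.4 after R848, at least 4.01-fold higher. Mertk, the receptor that clears apoptotic cells, was 177 untreated and undetected after R848, at least 1.58-fold lower, and Havcr2 (TIM-3) was 829 untreated and 289 after R848, 2.87-fold lower. Mrc1, C1qa and C1qb differed by 0.04, 0.00 and -0.22.

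Of 27 genes of costimulation and antigen presentation 6 were at least 2-fold higher and none lower, and the median was 0.70. Cd40 was 587 untreated and 9541 after R848, 16.2-fold higher, Cd83 undetected untreated and 1579 after R848, at least 15.8-fold higher and Cd274, the inhibitory ligand PD-L1, 286 untreated and 6047 after R848, 21.1-fold higher. Cd69 was 153 untreated and 4621 after R848, 30.3-fold higher and Slamf7 undetected untreated and 2351 after R848, at least 23.6-fold higher. Tap1, the peptide transporter, was 2.46-fold higher. H2-Ab1 and H2-K1, class II and class I chains, rose within 2-fold (0.96 and 0.79), as did the costimulatory ligand Cd86 (0.70), and B2m differed by -0.14. The mean difference of the 3 other detected probes of H2-Ab1 was 1.20.

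Among 25 adhesion genes 7 were at least 2-fold higher and 3 lower (3 and 2 against the recovered untreated array). Icam1, the ligand of the leukocyte integrins, was 913 untreated and 13237 after R848, 14.5-fold higher, and Vcam1 was undetected untreated and 221 after R848, at least 2.22-fold higher. Nrp1, Itgb5 and Itga6 were 2.53-fold, 2.11-fold and 2.09-fold lower, and Itgam and Itgb2, the chains of the macrophage integrin Mac-1, differed by 0.39 and 0.13.

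Of 33 genes for proteases, clotting and matrix 12 were at least 2-fold higher and 3 lower (6 after median scaling). Serpinb2, the inhibitor PAI-2 of urokinase, was undetected untreated and 1424 after R848, at least 14.3-fold higher, while urokinase itself (Plau, above) was 12.8-fold lower and its receptor Plaur rose within 2-fold (0.95). Mmp13, a collagenase, was 335 untreated and 14765 after R848, 44.1-fold higher, and Mmp9, a gelatinase, was 112 untreated and 488 after R848, 4.37-fold higher. F10, coagulation factor X, was 129 untreated and 1134 after R848, 8.77-fold higher, and Thbd, the anticoagulant thrombomodulin, was 462 untreated and 172 after R848, 2.69-fold lower.

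Effector enzymes of inflammation were higher in 18 of 31 members (17 at the limits) and lower in 2, with a median of 1.92 (1.31 at the limits). Nos2, inducible nitric oxide synthase, was undetected untreated and 911 after R848, at least 9.13-fold higher, and Arg2, which competes with it for arginine, was undetected untreated and 649 after R848, at least 6.503-fold higher, against Arg1, the arginase of alternatively activated macrophages, at 16943 untreated and 6686 after R848, 2.53-fold lower (-1.34, and -0.67 against the recovered array). Slc7a2, which imports arginine, was undetected untreated and 248 after R848, at least 2.49-fold higher. The same substrate pathway thus held genes of either direction.

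Along the prostaglandin pathway Ptges, which makes prostaglandin E2 from the product of cyclooxygenase-2, was undetected untreated and 1101 after R848, at least 11.04-fold higher, and Hpgd, which degrades it, was 528 untreated and undetected after R848, at least 4.705-fold lower. Hpgds, which makes prostaglandin D2, and Ltc4s, which makes leukotriene C4, fell within 2-fold (-0.61 and -0.50). Lcn2, which binds bacterial siderophores, was 506 untreated and 8443 after R848, 16.7-fold higher, and Hp, haptoglobin, was undetected untreated and 1793 after R848, at least 17.98-fold higher. Hdc, which makes histamine, was undetected untreated and 605 after R848, at least 6.06-fold higher.

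Survival genes were higher in 6 of 26 members and lower in 2. Bcl2a1d, a BCL2 relative with near-identical copies in the mouse that its probe may not tell apart, was 172 untreated and 2603 after R848, 15.1-fold higher, while Bcl2 itself was 304 untreated and undetected after R848, at least 2.71-fold lower. Pim1 and Malt1, a kinase and a paracaspase that favour survival, were at least 4.83-fold and 9.44-fold higher. Casp9, Bid and Bbc3, which promote death, fell within 2-fold (-0.98, -0.83 and -0.77).

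Metabolic genes were read as a list for central metabolism and a list for sterols. Of 30 genes of glycolysis, hypoxia and central metabolism 2 were at least 2-fold higher and none lower, with a median of -0.17. The share of 6.67% higher was near the 7.70% over all members. Hif1a, the hypoxia factor that is also induced in activated macrophages, was 304 untreated and 813 after R848, 2.68-fold higher, and Slc2a6, a lysosomal hexose transporter, was 2005 untreated and 13588 after R848, 6.78-fold higher. Gapdh, Pgam1 and Aldoa differed by 0.00, -0.09 and -0.33. Of 25 sterol genes 3 were higher and 2 lower, but none was 2-fold higher in the processed values or against the recovered untreated array, and 1 was after median scaling. The 3 included Cyp51 of the synthesis pathway, higher by 2.61-fold (1.38, and 0.61 against the recovered array). Among the lower genes was Abcg1, a cholesterol exporter (at least 3.27-fold). By limma 9 of the 25 sterol genes rose and 1 fell.

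Of 30 solute carriers 7 were at least 2-fold higher (6 at the limits) and 5 lower (3 without background correction). Slc28a2, a nucleoside transporter, was undetected untreated and 591 after R848, at least 5.93-fold higher, and Slc11a2, the iron importer DMT1, was 276 untreated and 1768 after R848, 6.42-fold higher, while Slc40a1, the iron exporter ferroportin, was 1500.3 untreated and 728 after R848, 2.06-fold lower. Slc31a2, a copper transporter, was 246 untreated and 1123 after R848, 4.57-fold higher.

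Among the lists, that of G1/S control and DNA replication had the most genes at least 2-fold lower. Of 48 genes of G1/S control and DNA replication 30 were at least 2-fold lower (28 at the limits) and none higher, with a median of -1.15 (-1.08 at the limits). Against the recovered untreated array 20 were lower, with a median of -0.87, and in the processed values 26. By limma 44 fell and 1, Cdk6, rose (0.87), with no call without either untreated array. Ccnd1, cyclin D1, which starts the passage through G1 after M-CSF, was 20881 untreated and 2068 after R848, 10.1-fold lower (limma effect -2.92 ± 0.30, adjusted p = 0.00343). Ccnd3 was 2979 untreated and 874 after R848, 3.41-fold lower, while Ccnd2 differed by -0.15. E2f2, a transcriptional activator of S phase genes, was 2387 untreated and 192 after R848, 12.4-fold lower, and E2f3 differed by 0.21.

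Origin licensing genes were among the lowest. Cdt1, which loads the replicative helicase, was 4518 untreated and 535 after R848, 8.45-fold lower, and Cdc6, its partner, was 1109.6 untreated and 148 after R848, 7.52-fold lower. Gmnn, geminin, which inhibits Cdt1, was 262 untreated and undetected after R848, at least 2.34-fold lower. The helicase subunit Mcm7 was 303 untreated and undetected after R848, at least 2.702-fold lower, and Ccne2, cyclin E2, 529 untreated and undetected after R848, at least 4.72-fold lower. Of the enzymes of nucleotide supply and DNA synthesis, Tk1 (-1.43) and Rrm2 (-1.43, and -0.44 against the recovered array) fell past 2-fold, and Tyms (-0.56), Rrm1 (-0.62) and Pole (-0.65) fell within it.

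Of 25 mitosis genes 2 (8 after median scaling) were at least 2-fold lower, Cdc25b (239 and undetected, at least 2.13-fold lower) and Ccnf (110.2 untreated and undetected after R848, too close to the floor for a fold), and none higher, with a median of -0.62, and by limma 12 fell and none rose (0 without either untreated array). Top2a, Cdc20 and Birc5 differed by -0.41, -0.42 and -0.58 and were not called. Of 23 DNA repair genes 9 were at least 2-fold lower (5 at the limits, 14 after median scaling) and none higher, with a median of -0.90, and 18 fell by limma (0 without either untreated array). Ung, which removes uracil from DNA, was 918 untreated and undetected after R848, at least 8.18-fold lower, and Msh6, of mismatch repair, was 2467 untreated and 294 after R848, 8.39-fold lower. Brca1 and Chek2 were at least 1.31-fold and at least 1.99-fold lower.

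The E2F motif, searched as TTTNGCGC on both strands, was in 1.38% of all promoters, 2.9% of the members', 0.966% of those of genes at least 2-fold higher and 4.46% of those of genes at least 2-fold lower. In the G1/S list 7 of 38 promoters held it. That of E2f2, the gene with the largest difference in the list (chr4:136172024-136172323, plus strand, GRCm38.p6 from RefSeq), holds 1 match, in capitals, from 40 to 47 bases after the start.
E2f2: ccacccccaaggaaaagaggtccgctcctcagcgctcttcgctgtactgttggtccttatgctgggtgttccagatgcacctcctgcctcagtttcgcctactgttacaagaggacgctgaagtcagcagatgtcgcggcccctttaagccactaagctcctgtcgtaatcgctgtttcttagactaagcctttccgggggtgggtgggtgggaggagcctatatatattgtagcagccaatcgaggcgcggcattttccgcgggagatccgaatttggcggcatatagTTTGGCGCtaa
As for the other motifs, the match describes the sequence only.

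Of 22 phosphoinositide and AKT genes 3 were at least 2-fold higher (1 with an offset of 50) and 5 lower. Inpp5d (SHIP1), the phosphatase that removes the product of PI3 kinase, was 767 untreated and 139.9 after R848, 5.48-fold lower, and Tsc22d3 (GILZ), a glucocorticoid-induced gene, was 1161 untreated and 270.5 after R848, 4.29-fold lower (-2.10, and -0.71 by its other probe).

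Growth factor pathways and the clock gave small groups. Of 22 TGF-beta, BMP, Notch and Wnt genes 3 were at least 2-fold higher and 3 lower. Notch1 was 600.3 untreated and 2742 after R848, 4.57-fold higher and its ligand Jag1 133 untreated and 345 after R848, 2.602-fold higher, and Smad6, an inhibitor of BMP signalling, was 185 untreated and undetected after R848, at least 1.65-fold lower. Among 13 clock genes 2 were higher and 2 lower (5 after median scaling), Dbp being 3.55-fold lower. Of 30 actin and cytoskeleton genes 6 were at least 2-fold higher and none lower, Marcks being 2767 untreated and 13088 after R848, 4.73-fold higher and Marcksl1 2164 untreated and 14101 after R848, 6.52-fold higher.

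Stress programmes were represented by single genes. Of 22 heat shock and unfolded protein genes 3 were at least 2-fold higher, Hspa1a (undetected and 234, at least 2.35-fold higher), Ppp1r15a (276 and 755, 2.73-fold higher) and Herpud1 (3061 and 8120.2, 2.65-fold higher), and none lower. Of 17 NRF2 targets and metallothioneins 3 were higher, Mt2 by at least 7.35-fold without a call and Sqstm1 and Txnrd1 by 3.56-fold and 2.94-fold, and none lower. Hmox1, the classical NRF2 target, differed by 0.76.

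Lists of genes used throughout the cell stayed within 2-fold. None of 34 ribosome biogenesis genes, 28 proteasome subunits, 23 ribosomal proteins, 32 respiratory chain subunits and 8 reference genes differed by 2-fold, their medians being 0.19, 0.11, -0.06, -0.17 and -0.07. In the processed values and against the recovered untreated array, 1 proteasome subunit was at least 2-fold higher. Psmd10 differed by 0.95 with the probe used and by a mean of 1.34 with its 2 other detected probes. Of 29 lysosomal genes 1, Sgsh, was 2-fold lower. Gapdh had levels of 32452 and 32452.

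The same difference could be formed in Irak2 knockout cells from 2 arrays that wild type does not use. There 392 of 6796 detected genes were at least 2-fold higher after R848 (5.77%) and 318 lower (4.68%). Among the 6631 genes detected in both pairs, 337 of the 490 that were higher in wild type were also higher in the knockout (68.8%), which is 88.2% of the 382 higher in the knockout. Of the 515 lower in wild type 269 were lower in the knockout (52.2%), which is 87.3% of its 308. No gene was past 2-fold in opposite directions, and over the genes the differences had a Pearson r of 0.911, a description over genes that share their arrays. Whether the genotypes differ at a gene was not tested, with 1 array for each combination.

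The signal of Irak2 itself on the knockout arrays, given above, applies to each of these values. For the 15 highest and 15 lowest genes the knockout had the same sign throughout. For Cxcl1 and Cxcl2 the values of both genotypes were alike, 7.35 in wild type and 7.45 in the knockout for Cxcl1, and 7.37 and 7.40 for Cxcl2. For Edn1 they were 6.72 and 3.50, and for Il6 6.36 and 4.06. Among the genes that fell, Dusp6 had -4.00 and -1.62, Cnr2 -3.70 and -1.02, and Slco2b1 -3.85 and -4.28. The median of the NF-kB list was 3.01 in wild type and 1.96 in the knockout, that of the guanylate-binding protein list 3.37 and 1.55, and that of the G1/S list -1.15 and -1.03.

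**Figure D5:**
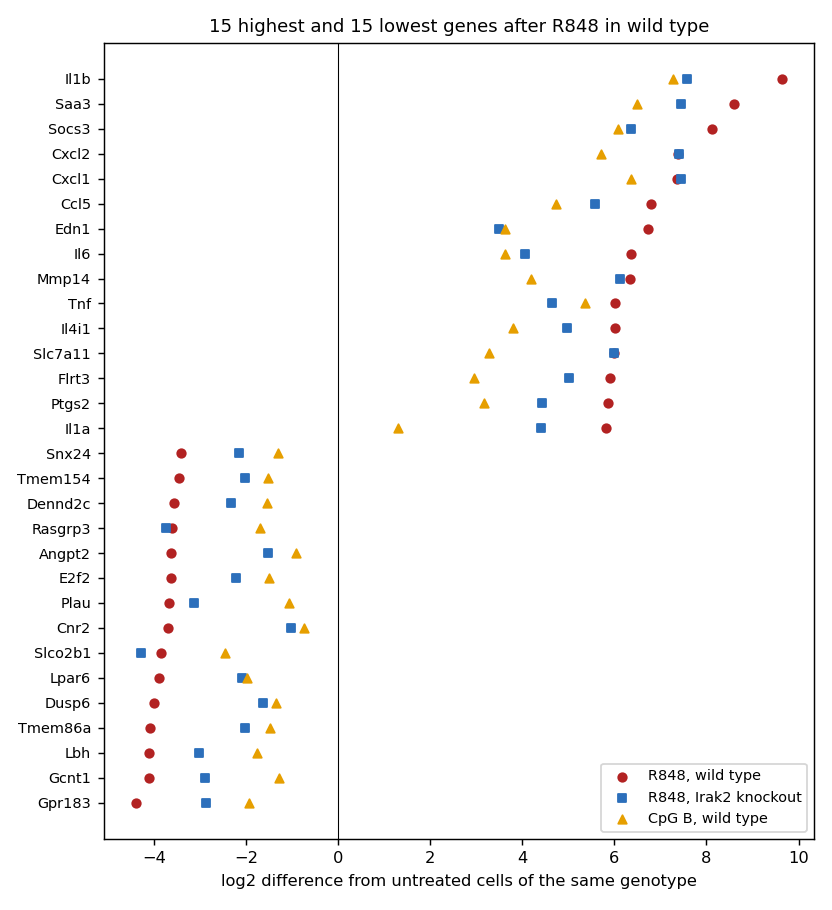
Log2 difference from untreated cells of the same genotype for the 15 highest and 15 lowest genes of the wild-type R848 response, in wild type with R848 (red circles), Irak2 knockout with R848 (blue squares) and wild type with CpG B (orange triangles). Cxcl1 and Cxcl2 have nearly the same value with R848 in both genotypes, and the CpG B values of all 30 genes lie nearer to 0 than the wild-type R848 values. The genes were chosen for their large wild-type R848 values, which by itself favours values nearer to 0 elsewhere, so the strength of the stimuli is not compared.

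In wild-type cells given CpG B, measured against the same untreated array, 252 of 6925 genes were at least 2-fold higher (3.64%) and 111 lower (1.60%). Because the untreated array is shared and the genes named were picked by their R848 values, the values are set side by side only. Tnf differed by 6.01 with R848 and 5.37 with CpG B, Cxcl1 by 7.35 and 6.35, Il1a by 5.82 and 1.30, and Plau by -3.68 and -1.07. The list medians were 2.61 and 0.85 for cytokines, 1.88 and 0.89 for chemokines, and -1.15 and -0.64 for G1/S genes.

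The estimate of R848 against CpG B over both genotypes does not use the untreated arrays, but its standard error comes from all 6. This contrast called none of the 7149 genes by limma (0%). At an unadjusted p under 0.05 it had 941, and the smallest adjusted p was 0.166. The estimate was above 1 for 92 genes and below -1 for 39. Leaving out the knockout R848 array gave 522, while leaving out any other array gave 0. No single gene therefore passed the planned test between these stimuli.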

How the data were processed

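Gene expression was measured on 6 Illumina mouseRef-8 v2 arrays, 1 per group, of which the wild-type untreated and wild-type R848 arrays form the comparison. Groups follow the genotype and agent in the labels, and no sample was left out. The authors deposited probe intensity values not normalized between arrays, from BeadStudio per the submitters' processing notes, which name no version. The deposited table has a detection p-value beside each intensity. Of these intensities 33.8% and 34.4% were below 0, so background had already been subtracted. They also deposited a table of processed intensity values. Set against the arrays, these are linear, not centred and quantile normalized, with a median of 24.3 in both columns used.

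In R 4.3.3 with limma 3.58.1, background was inferred from the detection p-values (normexp), an offset of 16 added, quantile normalization applied over the 6 arrays and log2 taken. The platform annotation, which can be old, named 23978 of 25697 probes. For the 4777 genes with several probes the brightest by mean log2 value was used. Processed values were used as log2(value + 16). The R848 effect and the contrast with CpG B came from an additive limma fit with Benjamini-Hochberg adjustment at 0.05, checked on simulated data. Depth does not apply to arrays: their number limits the precision. A p-value here is set against how far the effects of the agents differ between genotypes, on arrays that may share a culture. No group has a second deposited array, so spread within a group does not enter.

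Named genes are the 15 in each direction with the largest difference that also passed 2-fold in the processed table, at most 6 per direction from each list, other list members as examples, Irak2, Tlr7 and genes at the thresholds. The members and lists were chosen with earlier results of these data known, and some items are not reported here. Alternatives were other background, scaling, offset, detection, probe and model choices, the processed values, the recovered array and leaving out each array.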

Additional observations from a re-analysis of the deposited data

Results flagged for a closer look

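Among the 1005 genes past 2-fold in wild type and detected in both pairs, 10 had a difference of the opposite sign in the Irak2 knockout, which uses other arrays. In each case the wild-type and the knockout pair of arrays differed in opposite directions, and the difference between genotypes was not tested. Higher in wild type were Dusp1, the phosphatase of p38 and JNK (1.69 in wild type and -0.06 in the knockout), Bcor, a corepressor of BCL6 (1.46 and -0.28), Itgav, the integrin alpha V chain (1.16 and -0.38), Il15, a cytokine for natural killer and memory T cells (1.06 and -0.65), and Smim3 (1.03 and -0.14).

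Lower in wild type were Itprip (-1.01 and 0.65), Ahnak, a large scaffold protein (-1.25 and 0.17), Gsdmc2, of the gasdermin family (-1.68 and 0.27), Cmtm6, which stabilizes PD-L1 (-1.69 and 0.02), and Slco4a1, an organic anion transporter (-1.75 and 0.04). For Dusp1 and Slco4a1 the untreated wild-type arrays also differed from each other, the recovered minus the deposited one by -1.37 and 1.12 in log2 units, and against the recovered array alone the wild-type differences were 3.08 and -2.84. For Ahnak the other detected probes had the opposite sign in wild type. Gsdmc2 was detected only on the untreated array, at a level of 104, near the floor.

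Probes without a gene name here were outside the comparison. Of 560 that were detected on either array, 38 were at least 2-fold higher after R848 and 53 lower, with differences from -4.54 to 4.19.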

How the results depend on the processing

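Of 10 alternatives, 9 kept the count of higher genes past 2-fold within 1.5 times of the main one and 8 that of lower genes. The exceptions were genes detected on both arrays (343 lower, fewer genes being counted) and a threshold of 1.5 log2 units (338 higher and 219 lower), and the processed values gave 323 lower, and 344 and 220, under the same changes. Median scaling gave 471 higher and 765 lower, so that 38.1% of the genes past 2-fold were higher in place of 49.4%, and moved the median of all genes from -0.10 to -0.21. All 1062 genes kept their direction under each scaling, background, offset and probe choice, and 1059 against the recovered untreated array. Egr1, Id1 and Id3 reversed there, to 1.81, 0.17 and 0.24. The limma counts for the R848 effect moved without a genotype term (558 risen and 722 fallen) and ranged from 2 to 938 risen and 0 to 1295 fallen when each array was left out in turn, the lowest without an untreated array. Such fits have 1 residual degree of freedom. The contrast with CpG B ranged from 0 to 522 when an array was left out and called 392 genes in wild type alone with the recovered arrays added (8 arrays); the cause was not tested. In that fit R848 is still 1 array and the spread comes from untreated pairs that may be technical, so its calls do not test the response. Of 1542 alternative values of the genes named by list or rank, 449 moved by over 0.255, the SD over genes between untreated arrays, and 1, that of Egr1, changed sign. No paired analysis was possible because each group has 1 array and the labels give no replicate numbers. Signals near the floor limit the size of falls that can be seen.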

Other observations

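The 33 genes that differed by 2-fold or more between the recovered and the deposited untreated wild-type array were chosen after their values were seen. Of these 27 were lower on the recovered array, and they included immediate early and growth-factor response genes: Egr1 (-3.20 in log2 units), Dusp1 (-1.37), Fos (-1.20), Gadd45g (-1.28), the BMP targets Id1 (-1.33), Id3 (-1.51) and Smad6 (-1.19), and the chemokines Cxcl1 (-1.57) and Cxcl2 (-1.12). The other 6 were higher there, among them Cxcr4 (1.37). For Egr1, Id1 and Id3 the R848 difference changed sign with the untreated array, from -1.40, -1.17 and -1.26 against the deposited array to 1.81, 0.17 and 0.24 against the recovered one. For Cxcl1 and Cxcl2 it was not below 7.35 with either.

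Genes in no list, also chosen after their values were seen, included enzymes of cyclic nucleotide breakdown. Pde4b, a cyclic AMP phosphodiesterase, was undetected untreated and 580.2 after R848, at least 5.82-fold higher, and Pde4a was undetected untreated and 439 after R848, at least 4.399-fold higher. Lox, lysyl oxidase, which cross-links collagen, was undetected untreated and 1171 after R848, at least 11.7-fold higher. Mefv, which encodes the inflammasome sensor pyrin, was undetected untreated and 473 after R848, at least 4.74-fold higher, and Mycl, a MYC family factor, was undetected untreated and 546 after R848, at least 5.48-fold higher. Txnip, which restrains glucose uptake and binds thioredoxin, was 4579 untreated and 777 after R848, 5.89-fold lower, and Cytip, an adaptor that limits leukocyte adhesion, was 2908 untreated and 309 after R848, 9.41-fold lower.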
